A study of Mus musculus with 14 samples.

Results

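The genes described here are 44 mouse genes of the cell cycle, from the cyclins and kinases that let a resting cell leave G1 to the proteins that replicate DNA and pull the chromosomes apart. They were chosen by name, as the probes whose gene name in the array files equals one of the 44, and they hold 85 of the 56605 probes on the array. They were read on 14 one-colour Agilent arrays of CD4+ T-cell total RNA, 7 labelled Roquin san/+, a genotype heterozygous for the sanroque (san) allele of the RNA-binding protein Roquin, and 7 labelled wild-type, named by the letters A to G within each genotype. The series is titled as a study of a mouse model of lymphoma of follicular helper T-cells. No treatment is labelled for either genotype, and age, sex and the way the cells were isolated are not given in the labels. The labels give the arrays as separate samples and do not say whether each is a separate mouse, so p-values measure the spread between these samples.

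As background, a resting T-cell sits outside the cycle. D-type cyclins with Cdk4 and Cdk6 phosphorylate the retinoblastoma protein Rb1, which releases E2F factors, and E2F factors switch on genes of DNA replication and nucleotide supply. Cyclin E with Cdk2 then starts S phase, cyclins A and B with Cdk1 drive mitosis, and Cdkn1a (p21) and Cdkn1b (p27) hold these kinases back. Transcripts of S phase and mitosis are low in resting cells and abundant in dividing ones, so in bulk RNA their level depends on how many cells divide as well as on RNA per cell. Fewer cells of a type and less RNA per cell cannot be told apart in these data.

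Levels are log2 processed signals less the 75th percentile of the same array, so that 0 is that percentile, and they compare arrays for one probe and not one gene with another. On Roquin san/+ G and wild-type E the spots lay 2 rows away from their probe names and were moved back, which raised their correlation with the median of all arrays from 0.02 to 0.99, but their detection calls could not be repaired. The lowest processed signal was 223 on Roquin san/+ G and 106 on wild-type E, against 2.13 to 7.34 on the other arrays. The 75th percentile of the signal was 107 on Roquin san/+ C and 419 to 996 on the other 11 well-placed arrays, so levels on that array are less certain. All 7 CD4 T-cell markers (Cd3e, Cd3d, Cd3g, Cd4, Cd28, Cd5 and Lck) were well above background on all 12 well-placed arrays. Roquin san/+ F stood apart by markers of other cells: it was the highest Roquin san/+ array for 7 of 8 B-cell, 7 of 8 myeloid and 4 of 4 NK-cell markers, and its summed CD4 T-cell marker level of 5.47 was the lowest of the 14. Slide 1 held 5 Roquin san/+ and 2 wild-type arrays, and slide 2 held 2 and 5.

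Of the 44 genes, 42 had a probe that passed the filter on dim probes, and 41 of the 42 were well above background on the well-placed arrays of both genotypes. The other, Cdc45, was well above background on 11 of the 12 well-placed arrays and passed the filter through 1 genotype alone. It is counted below among the 42 genes and among those of origin licensing and replication. Its direction is tied to that filter and adds nothing to the counts of direction. Cdkn1a was called well above background on only 5 of the 12 well-placed arrays and Ccne2 on 3 of 12, so neither was tested. The signal of Cdkn1a was listed from -7.20 through -6.42 to -4.32 in Roquin san/+ and from -8.64 through -6.77 to -4.00 in wild-type. The highest values, on Roquin san/+ G and wild-type E, are the lowest signal of those moved arrays and not measured levels. Of the 42 tested genes, 12 were not called well above background on at least 1 moved array. No adjusted p fell below 0.05 for any of the 42 genes, and none had an unadjusted p below 0.05 with limma. Across the array 0 of 29036 probes (0%) passed the adjusted threshold and 1060 (3.65%) had an unadjusted p below 0.05, and counted by gene 4.4% did. The groups overlapped for every tested member, while 0.0675% of all tested genes had groups that did not.

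The mean was lower in Roquin san/+ for 40 of the 42 genes, Cdc45 among them, against 45.9% of all 19249 genes tested. The median difference was -0.33 against 0.03 over all genes. The exceptions were E2f2 and Rb1. The direction was not the same on both slides, and the difference between slides was not tested. On slide 1 alone the median difference was 0.25 with 33 of 42 genes higher in Roquin san/+, and on slide 2 alone it was -0.58 with 39 of 42 lower. With slide as a block it was -0.17. It also depended on single arrays: it was -0.05 with 26 of 42 genes lower without wild-type C, -0.16 without wild-type A, -0.15 without Roquin san/+ A and -0.51 without wild-type D. Most of the 42 genes moved together across arrays, as described below, so their directions are not separate observations.

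**Figure D1:**
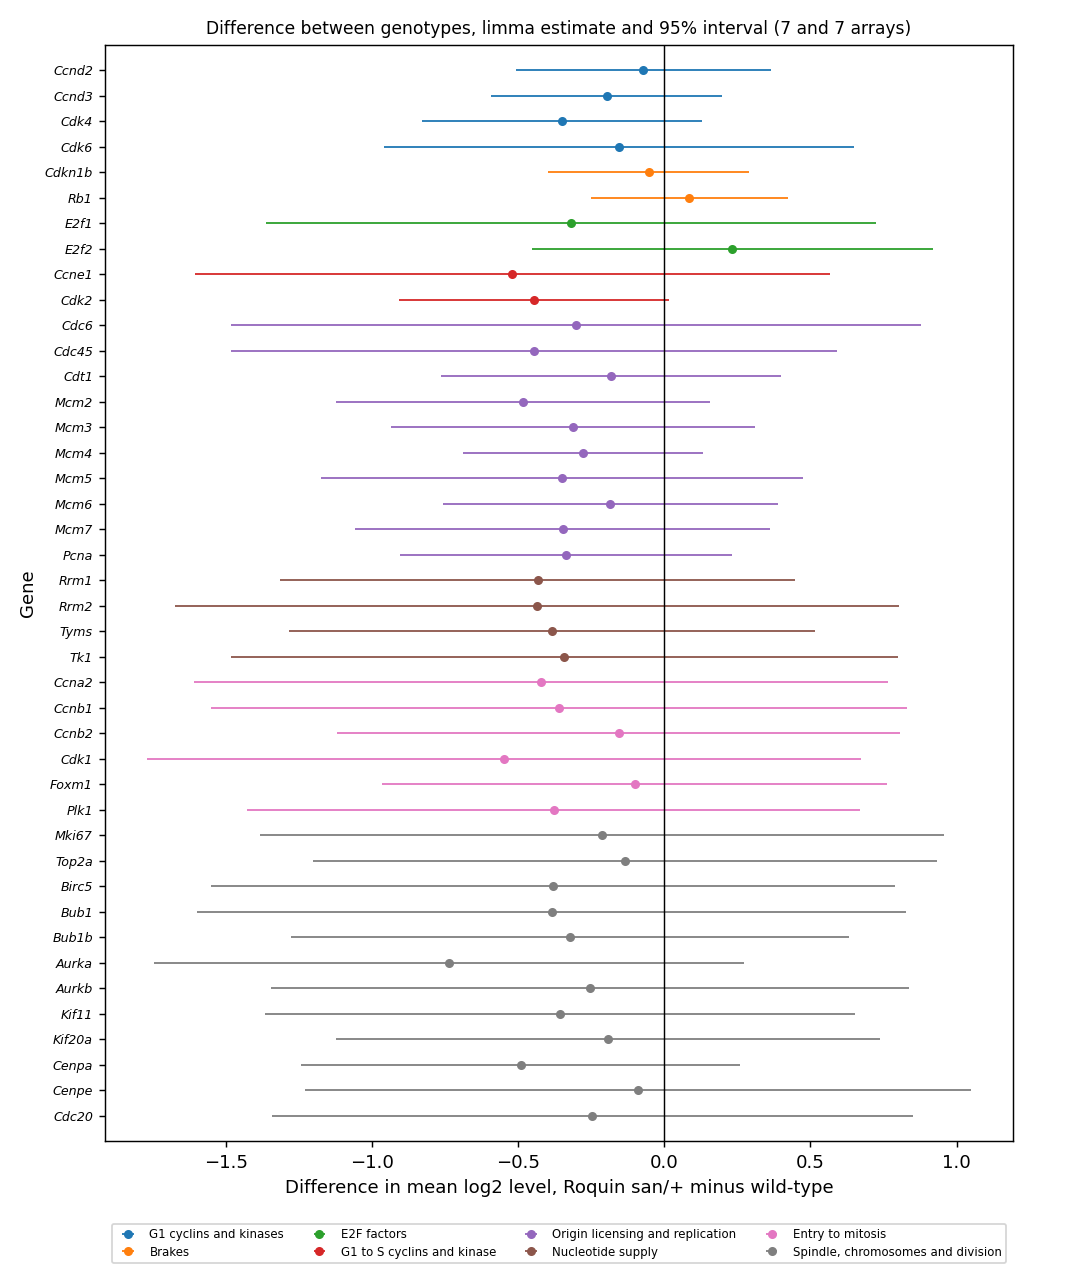
Difference in mean log2 level between 7 Roquin san/+ and 7 wild-type arrays (horizontal axis, Roquin san/+ minus wild-type) for the 42 tested genes (vertical axis), coloured by role. Points are limma estimates and bars their 95% intervals. Every interval includes 0, and all points but those of E2f2 and Rb1 lie below 0.

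The promoters of genes that move together can share short motifs. RefSeq windows of the 250 bases before the start (build GRCm38.p6) were found for 36 of the 44 genes. The letters CCAAT, on either strand, were in 25 of the 36 (69.4%) and in 34.5% of all 27025 windows. The letters TTTGAA, the cell cycle homology region, were in 8 (22.2%) against 16.3%. An E2F core, taken as the letters TTCCCGC or the variant TTCGCGC or the variant TTGCCGC or the variant TTGGCGC on either strand with overlapping matches counted, was in 10 (27.8%) against 7.97%. A set of 24 windows was made of Mki67 itself and the members that correlated with it above 0.8 across arrays, as given later. Of these, 17 held CCAAT, 6 TTTGAA and 8 the E2F core. Of the 11 windows of other tested members, 8 held CCAAT, 2 TTTGAA and 2 the E2F core. A match describes letters and not a bound site.

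The 200 bases before the start are printed, 5′ to 3′ with every match of these motifs in capitals, for Cdk1 and Ccnb2 of mitosis and Mcm5 of replication, which moved together, and for Cdkn1b, which ran against them. For Cdk1 and Cdkn1b this describes the probe used, with which their other tested probes agreed poorly. Cdk1 lies at chr10:69352913-69353112 on the minus strand, Ccnb2 at chr9:70421555-70421754 on the minus strand, Mcm5 at chr8:75109309-75109508 on the plus strand and Cdkn1b at chr6:134920201-134920400 on the plus strand. In these windows Cdk1 holds each motif 2 times, Ccnb2 holds CCAAT 3 times and TTTGAA once, Mcm5 holds the E2F core 3 times and CCAAT 2 times, and Cdkn1b holds CCAAT 2 times and neither other motif.
Cdk1: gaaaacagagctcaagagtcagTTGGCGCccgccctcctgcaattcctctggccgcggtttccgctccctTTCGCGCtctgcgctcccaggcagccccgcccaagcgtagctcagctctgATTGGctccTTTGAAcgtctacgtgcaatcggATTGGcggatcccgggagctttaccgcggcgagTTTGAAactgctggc
Ccnb2: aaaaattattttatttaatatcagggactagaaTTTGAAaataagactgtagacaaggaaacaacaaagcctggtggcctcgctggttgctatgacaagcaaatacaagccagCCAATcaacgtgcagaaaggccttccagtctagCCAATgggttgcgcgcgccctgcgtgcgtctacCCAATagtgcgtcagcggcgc
Mcm5: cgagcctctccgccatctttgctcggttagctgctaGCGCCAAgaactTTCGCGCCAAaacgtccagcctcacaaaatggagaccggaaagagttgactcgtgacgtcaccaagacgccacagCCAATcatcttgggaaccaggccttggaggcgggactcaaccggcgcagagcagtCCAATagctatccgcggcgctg
Cdkn1b: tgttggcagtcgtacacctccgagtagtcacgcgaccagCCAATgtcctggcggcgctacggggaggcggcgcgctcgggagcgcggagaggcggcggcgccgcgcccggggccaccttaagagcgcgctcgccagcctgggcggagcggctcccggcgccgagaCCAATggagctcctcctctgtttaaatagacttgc

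The G1 cyclins and kinases open the cycle, and all 4 had a lower mean in Roquin san/+, with a median difference of -0.18 and none past the test. Ccnd2, a D-type cyclin of lymphocytes, ran on the Roquin san/+ arrays from 3.25 through a median of 3.89 to 4.35, and on the wild-type arrays from 3.19 through 4.10 to 4.22. Its lowest values were on Roquin san/+ F and wild-type C, and the genotypes covered the same range. The difference was -0.07 ± 0.20 (SE; limma adjusted p = 0.956). Ccnd3, the other D-type cyclin here, was tight in Roquin san/+, from 2.88 through 3.17 to 3.36, and spread upwards in wild-type, from 2.9998 through 3.08 to 4.03. Wild-type A, C and E lay above every Roquin san/+ array, and the other wild-type arrays lay among them. The difference was -0.20 ± 0.18 (SE; limma adjusted p = 0.86), and of its other tested probes, 1 correlated with the probe used at only 0.33 over the 12 well-placed arrays and had a difference of 0.05.

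Cdk4, the partner kinase of the D-type cyclins, ran from 1.59 through 1.87 to 2.06 in Roquin san/+ and from 1.63 through 1.93 to 3.22 in wild-type. Only wild-type C, A and B reached above the Roquin san/+ arrays. Its difference of -0.35 ± 0.22 (SE; limma adjusted p = 0.86) was the largest of the group. Cdk6, the second kinase that D-type cyclins activate, ran from -0.54 through 0.48 to 1.79 in Roquin san/+ and from -0.38 through 0.52 to 1.67 in wild-type. It was highest on replicate C of both genotypes and lowest on Roquin san/+ A and wild-type D, an order that most genes below shared.

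The brakes varied least. Cdkn1b, the inhibitor p27, ran from 0.98 through 1.47 to 1.62 in Roquin san/+ and from 0.96 through 1.52 to 1.74 in wild-type. Its lowest level was on replicate C of both genotypes, where most cycle genes were highest. The difference was -0.05 ± 0.16 (SE; limma adjusted p = 0.959), but the other tested Cdkn1b probe correlated with this one at -0.03 over the well-placed arrays, so that the pattern holds for 1 of the 2 probes only. Rb1 ran from -0.998 through -0.60 to -0.45 in Roquin san/+ and from -1.23 through -0.79 to -0.39 in wild-type, and its difference was 0.09 ± 0.16 (SE; limma adjusted p = 0.926). The other Rb1 probe gave -0.09 and correlated at 0.25 with the first.

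**Figure D2:**
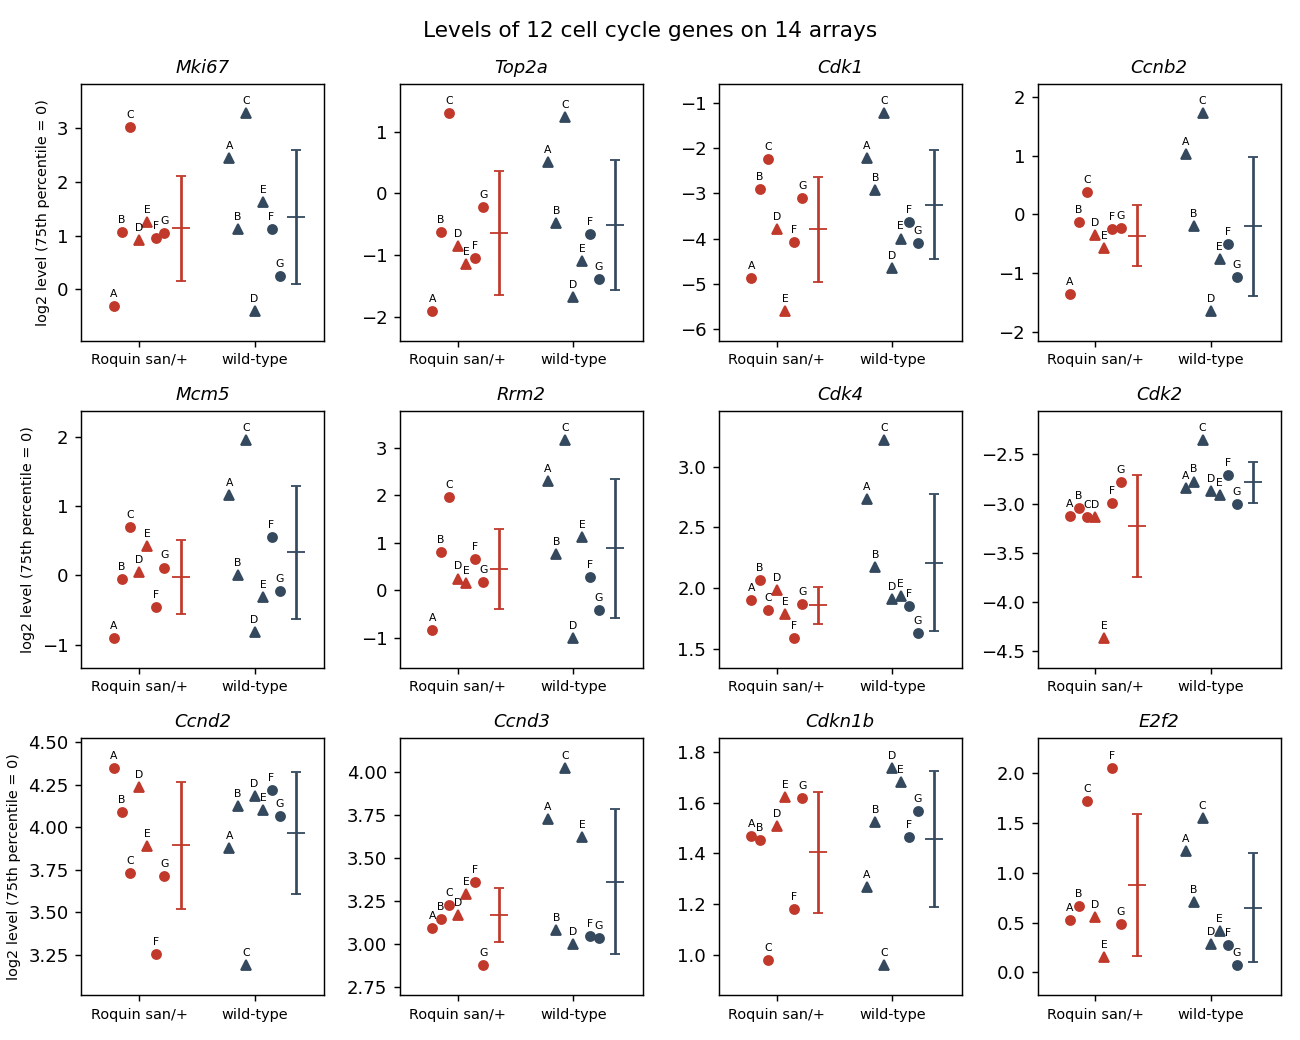
Log2 levels of 12 cell cycle genes (vertical axes, 75th percentile of the array = 0) on the 7 Roquin san/+ (red) and 7 wild-type (dark) arrays, each point 1 array with its letter, circles on slide 1 and triangles on slide 2. Horizontal ticks and bars beside the points are means and SD. Wild-type C and A and Roquin san/+ C are high, and Roquin san/+ A and wild-type D low, for Mki67, Top2a, Mcm5 and Rrm2, while Ccnd2 and Cdkn1b are low on wild-type C.

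The E2F factors split. E2f1, an activator of S phase genes, ran from -3.59 through -2.51 to -1.22 in Roquin san/+ and from -3.80 through -2.09 to -0.33 in wild-type, with a difference of -0.32 ± 0.49 (SE; limma adjusted p = 0.909). E2f2, a related activator, ran from 0.16 through 0.56 to 2.06 in Roquin san/+ and from 0.07 through 0.42 to 1.55 in wild-type. Its highest value was on Roquin san/+ F, the array with high levels of other cells' markers, and the next on Roquin san/+ C. The difference was 0.23 ± 0.32 (SE; limma adjusted p = 0.897), and without Roquin san/+ F it was 0.04 (limma adjusted p = 0.99). Without Roquin san/+ C and F and both moved arrays it was -0.21.

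Of the G1 to S genes, Ccne1 (cyclin E1) ran from -1.40 through -0.43 to 1.02 in Roquin san/+ and from -1.43 through -0.07 to 2.19 in wild-type. Wild-type C and A stood highest, and the difference was -0.52 ± 0.51 (SE; limma adjusted p = 0.861). Cdk2, the kinase that cyclins E and A activate, had the smallest limma p of the 42. It ran from -4.37 through -3.13 to -2.78 in Roquin san/+ and from -3.003 through -2.84 to -2.36 in wild-type. Of the Roquin san/+ arrays only G and F lay within the wild-type range, and E lay far below the rest. Cdk2 was not called well above background on Roquin san/+ G, the highest of its genotype, or on wild-type E. These are the moved arrays, whose calls could not be repaired. The difference was -0.44 ± 0.22 (SE; limma adjusted p = 0.86). A two-sided exact permutation of its 14 values gave p = 0.00932, which is not adjusted for the 42 genes. Without Roquin san/+ E the difference was -0.26, and over all alternatives the adjusted p ran from 0.486 upwards.

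The 10 genes of origin licensing and replication, counting Cdc45, all had a lower mean in Roquin san/+, with a median difference of -0.32. Mcm2, a subunit of the helicase that unwinds origins, had the largest, -0.48 ± 0.30 (SE; limma adjusted p = 0.86). It ran from -1.14 through -0.42 to 0.22 in Roquin san/+ and from -0.66 through -0.30 to 1.30 in wild-type. Mcm5, another subunit of that helicase, ran from -0.90 through 0.06 to 0.70 and from -0.82 through 0.01 to 1.95. The medians were nearly the same, and wild-type C and A were the highest of all arrays. Pcna, the clamp that holds DNA polymerase to its template, ran from 1.58 through 1.87 to 2.28 in Roquin san/+ and from 1.42 through 2.18 to 3.48 in wild-type, and its difference was -0.34 ± 0.27 (SE; limma adjusted p = 0.86). The loading factors Cdc6 and Cdt1 differed by -0.30 and -0.18, and Cdc45, which joins the helicase at firing, by -0.45. On both moved arrays Cdc45 was at the lowest signal of the array, which on Roquin san/+ G was the highest Roquin san/+ value. With normexp background correction the Cdc45 difference was 0.14, so that it was not lower under that setting. The helicase subunits Mcm3, Mcm4, Mcm6 and Mcm7 differed by -0.31, -0.28, -0.18 and -0.35.

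Nucleotide supply varied more than replication did. Rrm2, the regulated subunit of ribonucleotide reductase, had the largest within-genotype SD of the 42 genes at 1.20. It ran from -0.84 through 0.24 to 1.95 in Roquin san/+ and from -1.01 through 0.75 to 3.15 in wild-type, a 6.91-fold and a 17.9-fold span. The difference was -0.44 ± 0.58 (SE; limma adjusted p = 0.894), smaller than that SE. Tyms, which makes thymidylate, ran from -1.31 through -0.24 to 0.18 in Roquin san/+ and from -1.18 through -0.29 to 1.84 in wild-type, a difference of -0.38 ± 0.42 (SE; limma adjusted p = 0.872). Rrm1 and Tk1 differed by -0.43 and -0.34.

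The 6 genes of entry to mitosis had a median difference of -0.37, all with a lower mean in Roquin san/+. Cdk1, the mitotic kinase, ran from -5.59 through -3.79 to -2.25 in Roquin san/+ and from -4.65 through -3.63 to -1.24 in wild-type. On wild-type E it was at the lowest signal of that array. Its difference was -0.55 ± 0.57 (SE; limma adjusted p = 0.87), while its other tested probe gave 0.38. That probe correlated with the one used at 0.46 over the 12 well-placed arrays. Ccnb2, a B-type cyclin, ran from -1.35 through -0.26 to 0.38 in Roquin san/+ and from -1.64 through -0.51 to 1.72 in wild-type. Here the Roquin san/+ median was the higher one and the mean the lower one, by -0.16 ± 0.45 (SE; limma adjusted p = 0.956). Foxm1, a transcription factor of mitotic genes, differed by -0.10, the kinase Plk1 by -0.38, and the cyclins Ccna2 and Ccnb1 by -0.42 and -0.36.

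The 12 genes of spindle, chromosomes and division had a median difference of -0.29. Mki67, the proliferation marker Ki-67, ran from -0.31 through 1.04 to 3.03 in Roquin san/+ and from -0.40 through 1.12 to 3.28 in wild-type, a 10.2-fold and a 12.8-fold span. Both genotypes thus covered nearly the same range, and the difference was -0.21 with a 95% interval from -1.38 to 0.96 (limma adjusted p = 0.952). Top2a, the topoisomerase that untangles sister chromosomes, ran from -1.91 through -0.85 to 1.30 and from -1.69 through -0.66 to 1.23, with a difference of -0.13 ± 0.50 (SE; limma adjusted p = 0.968). Aurka, a spindle pole kinase, had the largest difference of the 42, -0.74 ± 0.47 (SE; limma adjusted p = 0.86). It ran from -1.69 through -0.75 to -0.26 in Roquin san/+ and from -1.62 through -0.15 to 1.88 in wild-type, and on Roquin san/+ C, the highest Roquin san/+ array for the other 11 genes of its group, it was -1.54.

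Of the rest of the group, Cenpa, the centromere histone, differed by -0.49, Birc5 (survivin) by -0.38, the checkpoint kinases Bub1 and Bub1b by -0.39 and -0.32, the kinase Aurkb by -0.25, the motors Kif11 and Kif20a by -0.36 and -0.19, Cenpe by -0.09, and Cdc20, an activator of the anaphase-promoting complex, by -0.245. On wild-type E, Bub1b, Aurkb and Kif11 were at the lowest signal of that array, and with normexp background correction the differences of Bub1b and Kif11 were 0.02 and 0.07.

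The members differed more between arrays of one genotype than most genes did. The median within-genotype SD of the 42 genes was 0.90 log2 units, against 0.50 over all genes tested, and 35 of 42 lay above that. By role the median SD was 0.25 for the brakes, 0.39 for the G1 cyclins and kinases, 0.82 for the E2F factors, 0.72 for the G1 to S genes, 0.58 for licensing and replication, 0.98 for nucleotide supply, 1.04 for spindle and division, and 1.07 for entry to mitosis. These medians are a description without a test.

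The same arrays were high or low for most of the genes. The median deviation of the 42 genes from their own medians was 1.91 on wild-type C, 1.15 on wild-type A and 1.08 on Roquin san/+ C. It was -0.98 on Roquin san/+ A, -0.93 on wild-type D and -0.50 on wild-type G, and between -0.25 and 0.17 on the other 8 arrays. Wild-type C was the highest wild-type array for 40 of the 42 genes, where 24.7% of all tested genes were highest on it. Ccnd2 and Cdkn1b were the exceptions and were lowest there. Among the Roquin san/+ arrays, replicate C was highest for 32 of the 42. Of all genes, 38% were highest and 28.2% lowest on that array. Roquin san/+ A was the lowest of its genotype for 28 of the 42 and wild-type D for 32, against 7.04% and 12.4% of all genes.

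**Figure D3:**
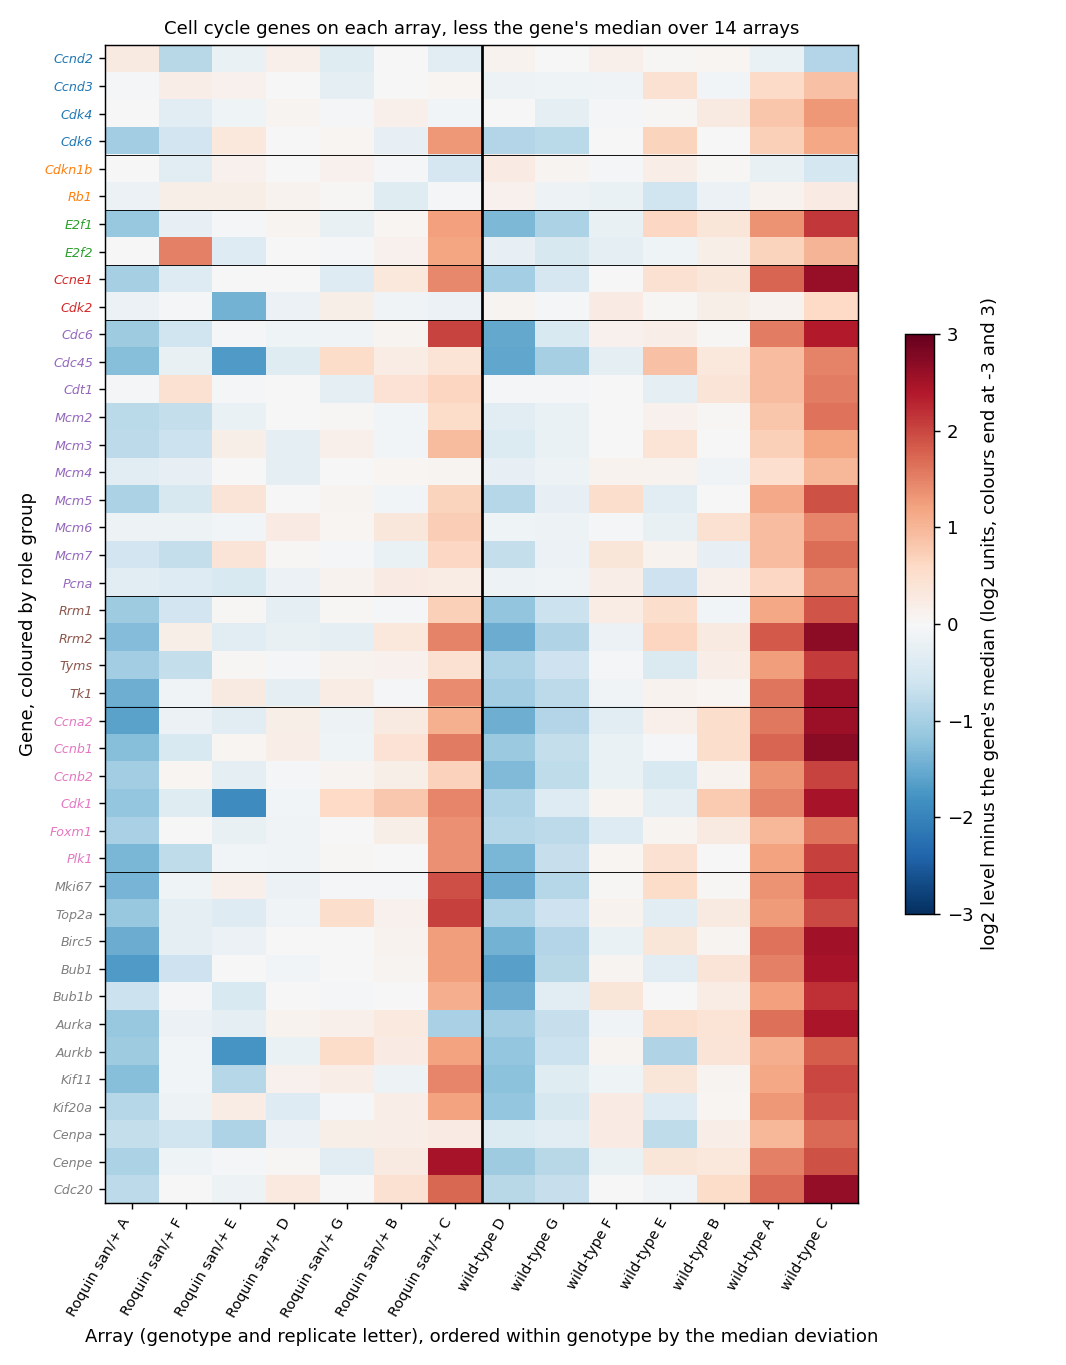
Log2 level of each tested gene (rows, coloured by role from the G1 cyclins at the top to spindle and division at the bottom) less its median over 14 arrays, on the Roquin san/+ arrays (left) and the wild-type arrays (right), each ordered by the median deviation. Red is above and blue below the gene's median. Wild-type C and A and Roquin san/+ C are red, and Roquin san/+ A and wild-type D blue, through nearly all groups after G1.

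Across the 14 arrays the median Pearson correlation over the 861 pairs of members was 0.82, and over all pairs of tested genes 0.01. Within entry to mitosis it was 0.94, within nucleotide supply 0.94, within spindle and division 0.90 and within licensing and replication 0.84. Between these 4 groups it ran from 0.84, for licensing and replication with spindle and division, to 0.95, for nucleotide supply with entry to mitosis. Of the 41 other members, 27 correlated with Mki67 above 0.8, against 3.73% of all genes, and the nearest were Plk1 and Cdc6 at 0.98, Birc5, E2f1, Foxm1 and Tk1 at 0.97. Ccnd2 at -0.60 and Cdkn1b at -0.74 ran the other way, and Rb1 at 0.16 and Cdk2 at 0.19 followed it little. These correlations describe genes on the same 14 arrays and share each array's scaling.

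**Figure D4:**
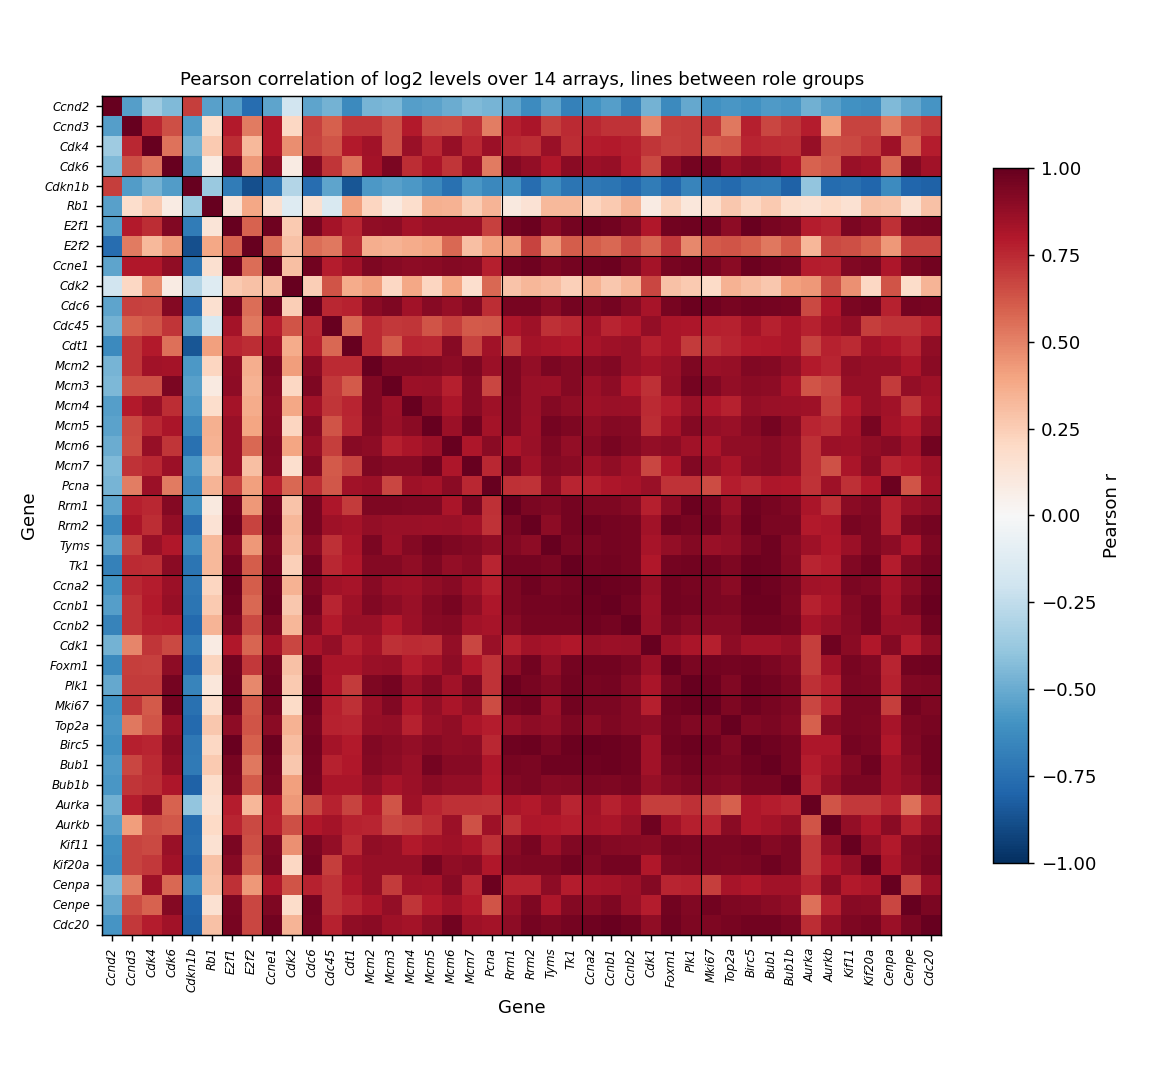
Pearson correlation of log2 levels over 14 arrays between every pair of the 42 tested genes (both axes, ordered by role, lines between roles). Red is positive and blue negative. The red block runs from E2f1 to Cdc20, and the rows of Ccnd2 and Cdkn1b are blue and those of Rb1 and Cdk2 pale.

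Of 10 pairs chosen for testing with earlier results of these data known, 9 could be tested, since Cdkn1a was too dim. All 9 Pearson correlations passed a two-sided permutation test with 100000 resamples after adjustment over the 9. Mki67 and Top2a had r = 0.93 (adjusted permutation p = 6e-05) and rho = 0.75 (adjusted permutation p = 0.00695). Without the 2 arrays farthest from the median of Mki67, replicate C of both genotypes, r was 0.84. Mcm2 and Mcm5 had r = 0.92 (adjusted permutation p = 6e-05) and rho = 0.78 (adjusted permutation p = 0.00531), and r was 0.76 without wild-type A and C. Mcm5 and Mki67, of replication and of division, had r = 0.88 (adjusted permutation p = 0.000113) and rho = 0.78 (adjusted permutation p = 0.00531). Within slide 1 that r was 0.82 and within slide 2 it was 0.92. Top2a and Birc5, both of division, had r = 0.92 (adjusted permutation p = 6e-05) and rho = 0.83 (adjusted permutation p = 0.00378), with r = 0.90 without replicate C of both genotypes. Mcm5 and Rrm2 had r = 0.85 (adjusted permutation p = 0.000216) and rho = 0.62 (adjusted permutation p = 0.0261), with 0.63 without wild-type A and C. Mki67 and Cdk1 had r = 0.78 (adjusted permutation p = 0.00168) and rho = 0.67 (adjusted permutation p = 0.0152), and 0.58 without replicate C of both genotypes, which no longer passed after adjustment. In the authors' log2 table that r was 0.56. The other tested Cdk1 probe correlated with the one used at only 0.46 over the 12 well-placed arrays.

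The pairs with G1 genes and a brake moved more between settings. Ccnd3 and Mki67 had r = 0.72 (adjusted permutation p = 0.0046) and rho = 0.68 (adjusted permutation p = 0.0152), but r was 0.42 without wild-type A and C, 0.30 within slide 1, 0.93 within slide 2 and 0.90 without Roquin san/+ C and F and both moved arrays. Cdkn1b and Mki67 had r = -0.74 (adjusted permutation p = 0.00364) and rho = -0.45 (adjusted permutation p = 0.112). Without replicate C of both genotypes r was -0.37, and without Roquin san/+ C and F and both moved arrays it was -0.85. The other tested Cdkn1b probe correlated with the one used at -0.03 over the well-placed arrays. Ccnd2 and Mki67 had r = -0.60 (adjusted permutation p = 0.0219) and rho = -0.53 (adjusted permutation p = 0.0603), with -0.67 without Roquin san/+ F and wild-type C, -0.43 within slide 1 and -0.82 within slide 2, and in the authors' log2 table r was -0.07.

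Most other genes of the cycle ran the same way. Of 101 further cell cycle genes 99 were tested, and none passed the adjusted threshold. The mean was lower in Roquin san/+ for 80 and higher for 19, against 45.9% of all genes lower, and the median difference was -0.24. Of the 99, 63 correlated with Mki67 above 0.8, against 3.73% of all genes. Their directions, read on the same 14 arrays, are thus not separate observations from those of the members. Their differences by slide or without single arrays are not given here. For 14 of the 99 the correlation with Mki67 was below 0, against 2 of the 41 other members. The smallest p-values belonged to Orc6, of the origin recognition complex, at -0.60 ± 0.28, Chek2, a checkpoint kinase, at -0.78 ± 0.36, and Gins4, of the replicative helicase, at -0.29 ± 0.16 (SE; limma adjusted p = 0.86 for each). In the other direction they belonged to the inhibitors Cdkn2b at 0.88 ± 0.59 and Cdkn1c at 0.27 ± 0.23, and to Racgap1, a regulator of cytokinesis, at 0.49 ± 0.34 (SE; limma adjusted p = 0.86 for each). The highest wild-type value of Cdkn2b and the wild-type median of Cdkn1c, both -4.00, are the lowest signal of the moved array wild-type E. They are not measured levels, so these 2 differences are uncertain.

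Markers of red cell precursors moved with these genes. Klf1, a transcription factor of the erythroid line, was -0.30 on Roquin san/+ C, -0.95 on wild-type A and -0.03 on wild-type C. It was -5.44 on Roquin san/+ A and -5.03 on wild-type D, and between -3.96 and -2.20 on the other 9 arrays. The arrays highest and lowest for Klf1 were thus the ones highest and lowest for the cell cycle genes. Mki67 and Klf1 had r = 0.93 (adjusted permutation p = 7e-05) and rho = 0.86 (adjusted permutation p = 0.000998), and Mki67 and Epor, the erythropoietin receptor, r = 0.96 (adjusted permutation p = 7e-05) and rho = 0.95 (adjusted permutation p = 0.00021). An unadjusted permutation p of 1e-05, which both had for r, is the smallest the test can give. Without replicate C of both genotypes the correlations with Mki67 were 0.87 for Klf1 and 0.94 for Epor, within slide 1 they were 0.93 and 0.92, and within slide 2 they were 0.94 and 0.99.

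All 8 erythroid markers were highest on wild-type C among the wild-type arrays, and 5 of the 8 were well above background on all 12 well-placed arrays. Their summed level ran from 0.63 through 3.28 to 7.45 in Roquin san/+ and from 0.71 through 4.03 to 6.70 in wild-type. A summed level is the log2 of the sum of unlogged levels, so the brightest marker weighs most. Roquin san/+ F had the highest sum but Klf1 at -3.96, and the median deviation of its cell cycle genes was -0.25. The summed level had r = 0.78 with Mki67 (adjusted permutation p = 0.00331) and rho = 0.73 (adjusted permutation p = 0.0127), with r = 0.61 within slide 1 and 0.98 within slide 2. The globin Hba-a1 had r = 0.75 (adjusted permutation p = 0.00513) and rho = 0.74 (adjusted permutation p = 0.0127), with 0.56 within slide 1 and 0.98 within slide 2. Hba-a1 alone was 7.30 on Roquin san/+ F and 6.28 on wild-type C, beside sums of 7.45 and 6.70. The sum and Hba-a1 are thus not separate results. Car2 and Tfrc, the latter a transferrin receptor that other dividing cells also use, had r with Mki67 of 0.95 and 0.90. With Klf1 as a covariate in the fit between genotypes, a setting added after the levels had been seen, the median difference of the 42 genes was -0.11 with 32 of 42 lower. The part of red cell precursors in the levels of the cell cycle genes was not tested beyond these values.

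The summed CD4 T-cell markers ran from 5.47 through 6.61 to 6.88 in Roquin san/+ and from 5.78 through 6.65 to 6.83 in wild-type, lowest on Roquin san/+ F and C and wild-type C. Their correlation with Mki67 was r = -0.63 (adjusted permutation p = 0.0275) and rho = -0.57 (adjusted permutation p = 0.071), and r was -0.26 without replicate C of both genotypes. It was -0.66 within slide 1, -0.80 within slide 2 and -0.84 without Roquin san/+ C and F and both moved arrays. Ccnd2 and Cdkn1b followed the T-cell markers, with r = 0.84 (adjusted permutation p = 0.00315) and rho = 0.69 (adjusted permutation p = 0.0207) for Ccnd2, and r = 0.85 (adjusted permutation p = 0.00304) and rho = 0.66 (adjusted permutation p = 0.0299) for Cdkn1b. Without the 2 arrays farthest from the median of Ccnd2 or Cdkn1b these were 0.61 and 0.71. The Cdkn1b values are those of the probe used, with which the other tested Cdkn1b probe correlated at -0.03 over the 12 well-placed arrays. Correlations of Mki67 were -0.03 with the summed B-cell, 0.10 with the NK-cell, 0.16 with the germinal centre B-cell and -0.40 with the CD8 T-cell markers, none past the adjusted permutation test. Only 1 of 4 germinal centre B-cell and 1 of 2 CD8 T-cell markers were well above background on all 12 well-placed arrays. On both moved arrays all 4 germinal centre markers were at the lowest signal of the array, and wild-type E had the highest wild-type sum. These 2 correlations thus say little. With the myeloid markers r was 0.55 (adjusted permutation p = 0.0641) and with the plasma cell markers 0.66 (adjusted permutation p = 0.0187), which fell to 0.28 without replicate C of both genotypes. On Roquin san/+ C the myeloid sum was 6.54 with Itgam alone at 6.20, and the plasma cell sum 5.68 with Jchain alone at 5.25. These 21 relations with markers were chosen after the levels had been seen and were adjusted over the 21.

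**Figure D5:**
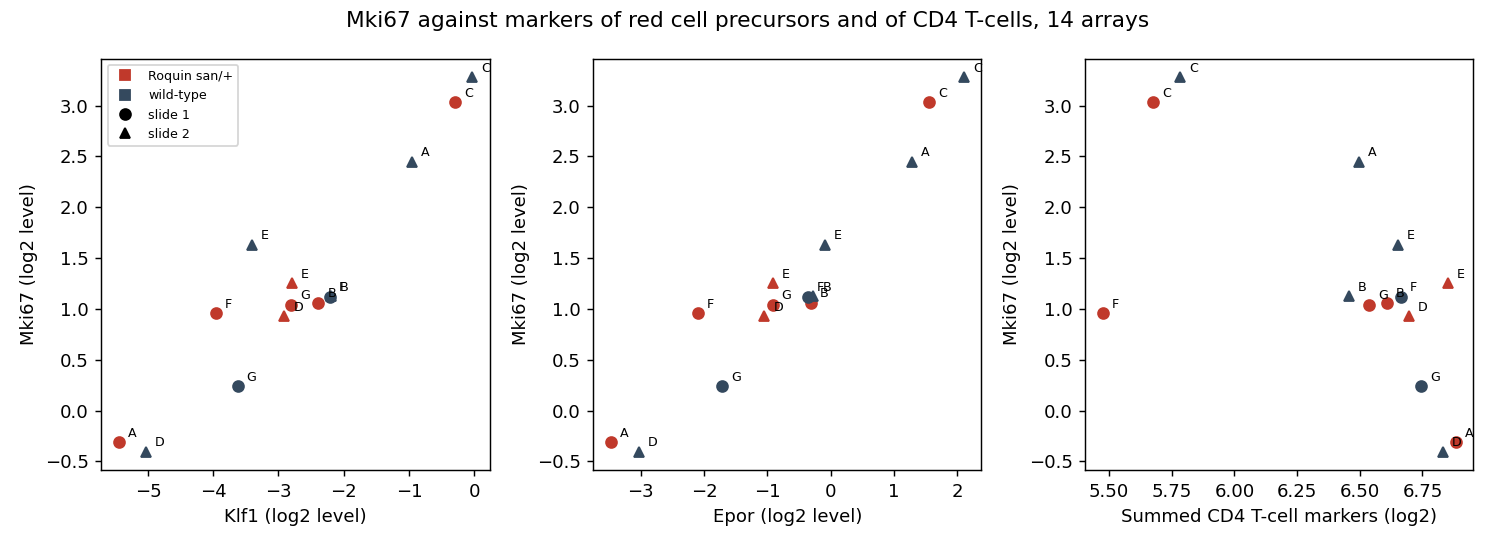
Log2 level of Mki67 (vertical axis) against Klf1, Epor and the log2 of the summed CD4 T-cell markers (horizontal axes) on 14 arrays, red for Roquin san/+ and dark for wild-type, circles on slide 1 and triangles on slide 2, with the letter of each array. Mki67 rises with Klf1 (r = 0.93) and Epor (r = 0.96) across both genotypes, and both replicates C lie low for the T-cell markers.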

How the data were processed

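CD4+ T-cell RNA of 7 Roquin san/+ and 7 wild-type samples was labelled with Cy3 and hybridised to 14 arrays. The authors deposited spot intensities from Agilent Feature Extraction 10.5.1.1, background-subtracted and detrended in the processed signal, and a table of log2 values with equal quantiles, whose method is not given in the sources used here. Each array was compared with the spot-wise median over shifts of up to 6 rows or columns, and 2 arrays were moved by 2 rows. Control spots and outlier flags were left out, spots of a probe were averaged, and the 75th percentile over 24081 probes well above background on the 12 well-placed arrays was subtracted. The 29036 probes well above background on all well-placed arrays of at least 1 genotype were fitted with limma 3.58.1 in R 4.3.3 (lmFit, eBayes, Benjamini-Hochberg, threshold 0.05), 3976 of them through wild-type and 841 through Roquin san/+ alone. A gene is its tested probe with the highest mean. The genes named were the main ones of each role, the largest difference of each role and, of other cell cycle genes, the 3 smallest p in each direction. Members, lists and pairs were chosen with earlier results of these data known. Python 3.11.15 with scipy 1.17.1 was used for permutation tests. The fit was tested on simulated data. Alternatives covered background correction, normalization, filters, slide, letter, displaced arrays, the authors' table, the variance model and single arrays. Precision is limited by how many arrays there are.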

Additional observations from a re-analysis of the deposited data

Results flagged for a closer look

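Of 84 groups of 7 arrays (42 genes in 2 genotypes), 5 had an array farther from its neighbours than Dixon's test allows at the 95% level, where chance flags about 1 in 20. Ccnd2 was lowest on wild-type C at 3.19, with 3.88 on the next array. Cdk2 was lowest on Roquin san/+ E at -4.37, against -3.14 on the next. On Roquin san/+ C, the dim array, Cdc6 was highest at -0.21 against -2.16, Bub1b, a checkpoint kinase, at -2.93 against -3.99, and Cenpe, a kinetochore motor, at 1.38 against -0.84 on the next array. The causes were not tested.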

How the results depend on the processing

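No probe and no member passed the adjusted threshold in any of the 38 alternatives, and the smallest adjusted p of a member over all of them was 0.486. The median member difference, -0.33, stayed below 0 in 36 of the 38 and was above 0 on slide 1 alone (0.25, 33 of 42 genes higher) and with replicate block and slide as a block together (0.22, 31 higher). It ran from -0.51 to -0.05 when each array was left out, the latter without wild-type C, -0.15 without Roquin san/+ A and -0.16 without wild-type A. It was -0.22 with normexp, -0.27 with quantile normalization, -0.45 with the percentile over all probes (the median of all genes moved from 0.03 to 0.14 with normexp and to -0.09 with all probes, and the members relative to it were at -0.36 in both, but at -0.23 with quantile normalization), -0.37 without both displaced arrays and -0.37 with the names as deposited. Chosen after seeing the data, leaving out Roquin san/+ C and F gave -0.50 and leaving out these and both displaced arrays -0.57. Fitting the letters as a replicate block gave -0.33 and 0 calls. The labels do not say whether same-lettered samples belong together. Same-lettered deviations correlated from -0.36 to 0.42, and 3 of 14 arrays matched their own letter best. Such values cannot show whether the samples were paired. Cdk2 had an unadjusted p below 0.05 in 10 of the 37 settings that tested it. The number of correlated pairs past the adjusted permutation test was 9 of 9, 5 within slide 1 and 9 within slide 2, 6 without the 2 outermost arrays and 8 in the authors' log2 table. The causes were not tested. Dim probes on the 2 moved arrays and on Roquin san/+ C limit the lowest levels.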
